A study of Mus musculus with 6 samples.

Results

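Expression of 8 genes of ketone body synthesis and of the fuel switch of fasting was compared in liver RNA-seq data of WT and *Sirt7* KO mice. The genes were *Acat1* and *Bdh1* (ketone body synthesis), *Slc16a1* (export of ketone bodies and lactate), *Pdk4* (a kinase that shuts down pyruvate oxidation), *Cd36*, *Fabp1* and *Acsl1* (uptake, binding and activation of fatty acids) and *Vnn1* (breakdown of coenzyme A). They were chosen by name for these roles, with earlier results of these data known. All 8 were among the 12524 of 54115 genes that had enough reads to be tested. The 3 WT and 3 *Sirt7* KO livers came from males aged 24 months that had been fasted for 16 h. No fed or younger mice were part of this comparison, so it shows a genotype difference in the fasted state and not a response to fasting. The *Sirt7* KO mice were littermates of the WT mice from crosses of heterozygous parents, backcrossed to C57BL/6J, and their deletion is not limited to the liver. Between 9994860 and 13424776 reads per mouse were assigned to transcripts. The deleted gene was at 55.2, 45.5 and 47.3 CPM (read counts scaled to library size with TMM factors) in WT livers and at 28.6, 41.7 and 40.8 CPM in *Sirt7* KO livers, and its full-length isoform was assigned 381 to 429 reads in WT mice and 77.5 to 135 in *Sirt7* KO mice. A short isoform of 427 bases (ENSMUST00000106183.2) was assigned 0 to 5.12 reads in WT mice and 50.5 to 93.3 in *Sirt7* KO mice. The per-length level of *Sirt7*, TPM summed over its isoforms, differed the other way, with 34.4, 28.3 and 27.3 TPM against 34.7, 49.9 and 68.0 TPM. The short isoform made up 53.6% to 62.4% of this TPM in *Sirt7* KO livers and 0% to 7.38% in WT livers. The TPM of *Sirt7* thus rests on few reads of a short transcript and does not show a higher level of intact *Sirt7* RNA. All 8 hepatocyte markers examined were detected, and their summed level was 54230.2 to 57964 CPM in WT mice and 58844 to 68800.5 CPM in *Sirt7* KO mice. Every *Sirt7* KO liver was thus above every WT liver in this sum, and whether this bears on the 8 genes was not tested. The summed markers of red blood cells were at 374 to 546 and at 446 to 915 CPM, and those of stellate cells, bile duct cells and lymphocytes overlapped between genotypes. The samples were bulk liver, in which fewer cells of a type and less RNA per cell cannot be told apart.

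In the fasted state, fatty acids released by adipose tissue enter the hepatocyte, are bound by FABP1, are activated to acyl-CoA by enzymes such as ACSL1, and are oxidized in mitochondria. The acetyl-CoA that is formed is condensed by ACAT1 and converted in further steps to acetoacetate, which BDH1 reduces to beta-hydroxybutyrate for export to other tissues. PDK4 phosphorylates the pyruvate dehydrogenase complex and so spares glucose carbon. Many of these genes are known targets of the nuclear receptor PPAR-alpha, which fatty acids activate in the fasted liver.

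With edgeR's quasi-likelihood test, 0 of the 8 genes passed the call rule (adjusted p-value below 0.05 and change over 1.5-fold), which 1 of the 12524 tested genes (0.00798%) met. Their adjusted p-values were 0.42 to 0.98 (edgeR, 3 mice per genotype). Of the 8 genes, 6 had a log2 fold change (*Sirt7* KO over WT) below 0 and 2 above 0, whereas 50.7% of all tested genes were below 0. The median log2 fold change was -0.57 over the 8 genes and -0.0061 over all tested genes. At an unadjusted p-value under 0.05 there was 1 gene of 8, *Vnn1*, and 11.3% of all tested genes passed this threshold. The livers of the genotypes did not overlap in 1 gene of 8, *Cd36*, while 16.8% of all tested genes showed no overlap and 8.09% were lower in *Sirt7* KO mice without overlap. Both counts were thus near the background of all genes. The spread between mice of the same genotype was wide in most of these genes, with a median SD of 0.72 on the log2(CPM + 0.5) scale, compared with 0.28 over all tested genes. It was wider than in 92.4% of tested genes or more for *Slc16a1*, *Pdk4*, *Cd36*, *Fabp1*, *Acsl1* and *Vnn1*, and *Acat1* was the only gene of the 8 below the median spread of all tested genes.

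**Figure D1:**
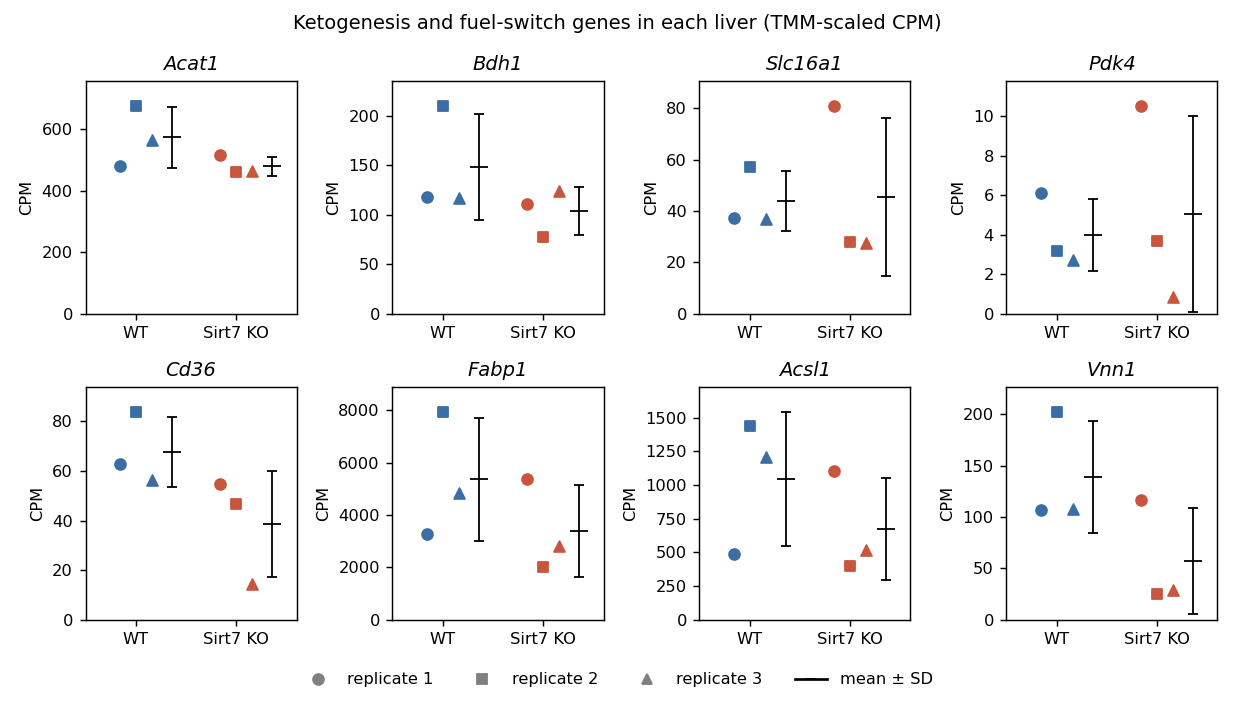
Expression of the 8 genes in each liver, in TMM-scaled CPM on axes that start at 0, with WT mice in blue, *Sirt7* KO mice in red, the shape of the point for the replicate number, and the mean ± SD of 3 mice beside each group. Only in *Cd36* are all 3 *Sirt7* KO livers below all 3 WT livers, and *Sirt7* KO mouse 1 is the highest of its genotype in every gene but *Bdh1*.

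*Acat1*, the mitochondrial thiolase that joins acetyl-CoA units at the entry of ketogenesis, is encoded on chromosome 9 of GRCm38 (minus strand, 53580522 to 53610382). It was at 479.5, 675 and 563 CPM in WT livers and at 515, 460.3 and 462 CPM in *Sirt7* KO livers. *Sirt7* KO mice 2 and 3 were below every WT liver, and *Sirt7* KO mouse 1 lay within the WT range. The means were 572 ± 97.9 CPM (SD, n = 3) and 479 ± 31.1 CPM (SD, n = 3), with a log2 fold change of -0.26 (standard error, SE, 0.17, adjusted p = 0.61 from edgeR). The 95% interval of the log2 fold change, -0.63 to 0.12, was the narrowest among the 8 genes and held fold changes from 0.644 to 1.09.

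*Bdh1*, the mitochondrial dehydrogenase that makes beta-hydroxybutyrate, lies on the plus strand of chromosome 16 (31422280 to 31458901). It was at 118, 209.8 and 116 CPM in WT livers and at 111, 76.9 and 124 CPM in *Sirt7* KO livers. WT mouse 2 was far above the 5 other livers, of which 4 lay between 111 and 124 CPM. The means were 148 ± 53.6 CPM (SD, n = 3) and 104 ± 24.3 CPM (SD, n = 3), and the log2 fold change was -0.51 (SE 0.27, adjusted p = 0.53 from edgeR). Without WT mouse 2 the log2 fold change was -0.17.

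*Slc16a1* encodes MCT1, a proton-coupled carrier of lactate, pyruvate and ketone bodies, and lies on the plus strand of chromosome 3 (104638668 to 104658462). It was at 37.3, 57.2 and 36.9 CPM in WT livers and at 80.9, 27.8 and 27.4 CPM in *Sirt7* KO livers. The *Sirt7* KO livers thus lay on both sides of the WT livers, with mouse 1 above and mice 2 and 3 below all of them. The means were 43.8 ± 11.6 CPM (SD, n = 3) and 45.3 ± 30.8 CPM (SD, n = 3), and the log2 fold change of 0.05 (SE 0.40, adjusted p = 0.98 from edgeR) had a 95% interval from -0.86 to 0.97. The sign of this difference changed in several alternatives, among them total-count scaling, where it was -0.032, the fits without WT mouse 1 or WT mouse 3, where it was -0.055, and the fit without *Sirt7* KO mouse 1, where it was -0.67.

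*Pdk4*, one of the kinases that inactivate pyruvate dehydrogenase, lies on the minus strand of chromosome 6 (5483351 to 5496309). It had few reads in these livers, with 72, 35 and 37 reads in WT livers and 115, 35 and 9 in *Sirt7* KO livers. These reads correspond to 6.10, 3.18 and 2.74 CPM and to 10.5, 3.71 and 0.867 CPM. The highest and the lowest value were both from *Sirt7* KO mice and differed 12.1-fold. The log2 fold change was 0.34 (SE 0.71, adjusted p = 0.90 from edgeR), with a 95% interval from -1.26 to 1.94. As fold changes, this interval ran from 0.416 to 3.84, so it held sizeable differences in either direction.

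*Cd36*, the membrane receptor that takes up long-chain fatty acids, lies on the minus strand of chromosome 5 (17781690 to 17888801). It was at 62.7, 83.7 and 56.5 CPM in WT livers and at 54.9, 46.6 and 14.4 CPM in *Sirt7* KO livers. Every *Sirt7* KO liver was below every WT liver, although the gap between the nearest livers, 54.9 and 56.5 CPM, was much smaller than the spread within either genotype. The means were 67.6 ± 14.3 CPM (SD, n = 3) and 38.6 ± 21.4 CPM (SD, n = 3), and the log2 fold change was -0.81 (SE 0.41, adjusted p = 0.50 from edgeR). Without *Sirt7* KO mouse 3 the log2 fold change was -0.41. *Cd36* is also expressed in macrophages, endothelial cells and adipocytes, whose markers were therefore examined. The summed level of 8 macrophage markers was 54.3 to 159.9 CPM in WT mice and 50.01 to 139.6 CPM in *Sirt7* KO mice, and that of 8 sinusoidal endothelial markers was 93.2 to 115.1 and 96.6 to 136.6 CPM. The summed level of 6 adipocyte markers was 19.0 to 40.7 CPM in WT mice and 5.49 to 19.3 CPM in *Sirt7* KO mice. Most of it was *Plin4* in every liver, and the defining adipocyte genes *Adipoq* and *Lep* had 0 or 1 read in each liver. The part of these markers in the *Cd36* values was not tested.

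*Fabp1*, the main cytosolic fatty acid-binding protein of hepatocytes, lies on the plus strand of chromosome 6 (71199827 to 71205023) and was by far the most abundant of the 8 genes. It was at 3290.5, 7929.6 and 4859 CPM in WT livers and at 5368, 2022 and 2799.9 CPM in *Sirt7* KO livers. *Sirt7* KO mice 2 and 3 were below all WT livers, whereas *Sirt7* KO mouse 1 was above 2 of the 3 WT livers. The means were 5359.8 ± 2359.7 CPM (SD, n = 3) and 3397 ± 1751 CPM (SD, n = 3), and the log2 fold change was -0.66 (SE 0.41, adjusted p = 0.59 from edgeR). With 19082 reads or more in each liver, counting error is small beside this spread between mice. The promoter of *Fabp1* is shown because it was the only one of the 8 promoter windows of these genes to hold a direct repeat of the kind that PPAR-alpha binds together with RXR. The window covers 250 bases before and 50 bases after the transcription start given by RefSeq (GRCm38.p6, plus strand, chr6:71199629-71199928), with matches in capitals:
*Fabp1* promoter: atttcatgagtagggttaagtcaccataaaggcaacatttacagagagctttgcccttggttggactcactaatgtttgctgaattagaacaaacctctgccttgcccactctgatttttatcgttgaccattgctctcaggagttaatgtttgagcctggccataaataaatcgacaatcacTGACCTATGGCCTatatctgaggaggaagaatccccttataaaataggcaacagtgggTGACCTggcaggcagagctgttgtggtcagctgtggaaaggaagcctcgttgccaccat
The letters searched, on either strand, were a direct repeat (AGGNCA, 1 base of any kind, and AGGNCA again) and the hexamer AGGTCA. The direct repeat begins 67 bases before the start and reads TGACCTATGGCCT on the plus strand, so that its first 6 bases are also a match of the hexamer, and the other hexamer begins 9 bases before the start. These distances are to the RefSeq start at 71199879, whereas the transcript counted here starts at 71199827. The repeat (71199812 to 71199824) lies before both starts, and the other hexamer (71199870 to 71199875) lies after the start of the counted transcript. Among 32851 promoter windows of the same length, 0.3805% held the direct repeat and 16.26% the hexamer. Windows were found for 6 of the 8 genes (8 windows in all), but not for *Acat1* and *Vnn1*. The hexamer was also found in the window of *Cd36*, and the windows of *Bdh1*, *Slc16a1*, *Pdk4* and *Acsl1* held neither.

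*Acsl1*, the main long-chain acyl-CoA synthetase of liver, lies on the plus strand of chromosome 8 (46471037 to 46536051). It was at 485, 1439 and 1209 CPM in WT livers and at 1103, 399 and 519 CPM in *Sirt7* KO livers. The livers formed a high range of 1103 to 1439 CPM and a low range of 399 to 519 CPM, and each range held mice of both genotypes. The means were 1044 ± 498 CPM (SD, n = 3) and 673 ± 376 CPM (SD, n = 3), and the log2 fold change was -0.63 (SE 0.45, adjusted p = 0.65 from edgeR).

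The annotation gives *Acsl1* coding transcripts of full length from starts that lie 19929 bases apart, and the promoters of both are shown because the livers differed in the reads assigned to each. The sequences are from RefSeq (GRCm38.p6, plus strand), the upstream window at chr8:46470787-46471086 and the downstream window at chr8:46490716-46491015, all in lower case since neither held a match:
*Acsl1* upstream promoter: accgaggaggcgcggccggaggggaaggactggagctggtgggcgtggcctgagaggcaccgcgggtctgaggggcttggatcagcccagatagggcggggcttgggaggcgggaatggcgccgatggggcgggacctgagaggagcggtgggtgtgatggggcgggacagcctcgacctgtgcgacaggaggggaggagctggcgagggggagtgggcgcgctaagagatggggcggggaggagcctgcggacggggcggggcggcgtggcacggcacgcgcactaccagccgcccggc
*Acsl1* downstream promoter: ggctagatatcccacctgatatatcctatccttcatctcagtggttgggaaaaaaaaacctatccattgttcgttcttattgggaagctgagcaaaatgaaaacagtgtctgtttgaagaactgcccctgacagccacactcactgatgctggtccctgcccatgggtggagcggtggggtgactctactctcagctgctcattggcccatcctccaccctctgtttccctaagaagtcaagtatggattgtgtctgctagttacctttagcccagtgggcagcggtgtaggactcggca
The upstream window was rich in CG pairs, with a GC content of 74% and 30 CpG, whereas the downstream window had 50% and 4, and the medians of all windows were 52.67% and 7. Salmon assigned 3527, 7182 and 9970 reads to the transcript of the upstream start (ENSMUST00000034046.12) in WT livers and 10715, 1313 and 1668 in *Sirt7* KO livers. To the transcript of the downstream start (ENSMUST00000110372.8) it assigned 1737, 7407 and 5098 reads in WT livers and 891, 2206 and 3403 in *Sirt7* KO livers. The upstream start thus took 67.0%, 49.2% and 66.2% of these reads in WT livers and 92.3%, 37.3% and 32.9% in *Sirt7* KO livers. *Sirt7* KO mouse 1 was above and *Sirt7* KO mice 2 and 3 were below every WT mouse in this share. The split between these transcripts of the same gene is an estimate of Salmon, and the reads that reach their first exons were not counted.

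**Figure D2:**
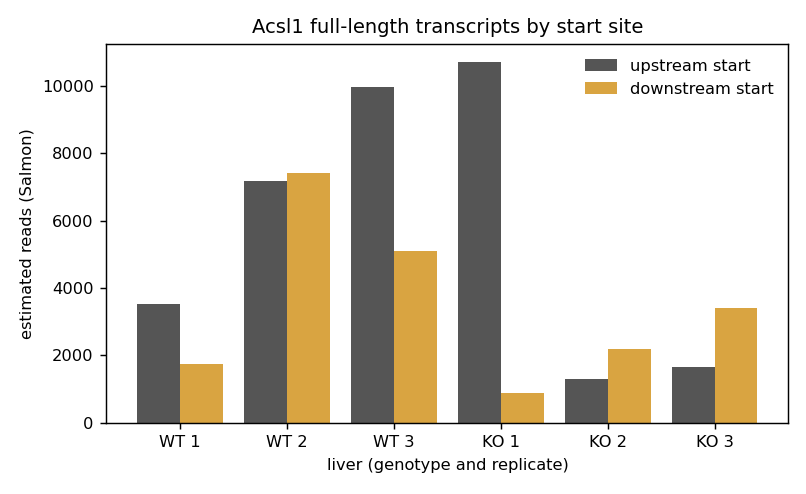
Reads that Salmon assigned to the full-length *Acsl1* transcripts of the upstream start (grey) and of the downstream start (yellow), as bars for each liver on an axis from 0. In *Sirt7* KO mouse 1 the upstream transcript held 10715 reads and the downstream one 891, while in WT mouse 2 and *Sirt7* KO mice 2 and 3 the downstream transcript held more.

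*Vnn1*, the pantetheinase that degrades pantetheine from coenzyme A, lies on the plus strand of chromosome 10 (23894688 to 23905343). It was at 106, 202 and 108 CPM in WT livers and at 116, 25.5 and 28.6 CPM in *Sirt7* KO livers. *Sirt7* KO mice 2 and 3 were far below all WT livers, whereas *Sirt7* KO mouse 1 was above 2 of the 3 WT livers. The means were 139 ± 54.7 CPM (SD, n = 3) and 56.8 ± 51.6 CPM (SD, n = 3). The log2 fold change of -1.28 (SE 0.55) was the largest in size among the 8 genes, with an unadjusted p = 0.045 and an adjusted p = 0.42 from edgeR. Without *Sirt7* KO mouse 1 the log2 fold change was -2.35 (SE 0.31, adjusted p = 0.020 from edgeR), and *Vnn1* was then called. In that fit 252 genes (1.95% of those tested) were called.

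**Figure D3:**
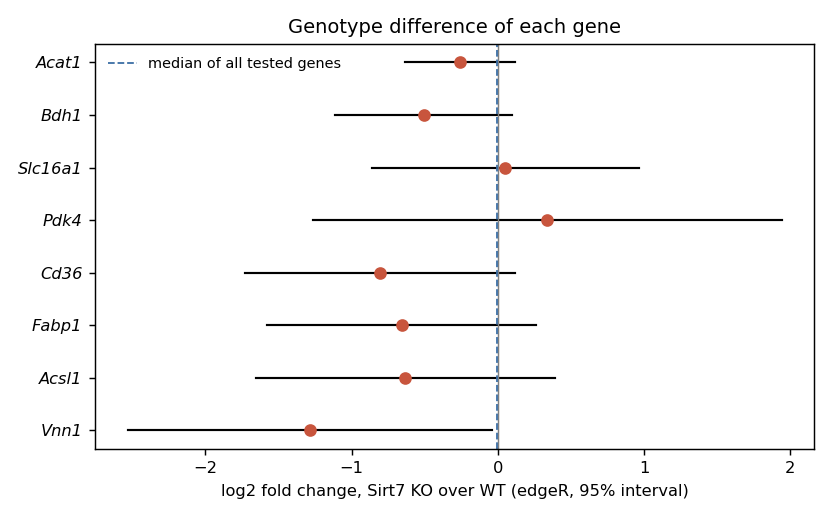
Log2 fold change of *Sirt7* KO over WT for each of the 8 genes (red points) with its 95% interval from edgeR (black lines), the median of all tested genes as a dashed line. The interval of *Vnn1* lies below 0 by a narrow margin, and the other 7 include 0.

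The levels of most of the 8 genes varied in a like way from liver to liver, within as well as between genotypes. Relative to the mean of each gene over the 6 livers, the median of the 8 genes was -0.08, 0.81 and 0.19 in WT livers and 0.49, -0.60 and -0.57 in *Sirt7* KO livers, on the log2(CPM + 0.5) scale. WT mouse 2 had the highest level of 6 of the 8 genes, and *Sirt7* KO mouse 1 the highest level of the other two, *Slc16a1* and *Pdk4*. The lowest levels were all in *Sirt7* KO mouse 2 (5 genes) or *Sirt7* KO mouse 3 (3 genes). As a description over the 6 livers, which share their libraries between genes, *Fabp1* followed *Acsl1* with a Pearson r of 0.95 (Spearman rho 0.89) and *Vnn1* with 0.91 (Spearman rho 1). With the mean of each genotype removed these values were 0.95 and 0.90. Among all 28 pairs the median r was 0.69, or 0.64 with the genotype means removed. *Pdk4*, with 9 to 115 reads per mouse, had a low r to some genes, of 0.06 to *Acat1*, -0.16 to *Bdh1*, 0.19 to *Acsl1* and 0.26 to *Fabp1*. Its r was 0.70 to *Slc16a1*, 0.69 to *Cd36* and 0.49 to *Vnn1*. A low r was also seen without *Pdk4*, as for *Bdh1* and *Cd36* with 0.27.

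**Figure D4:**
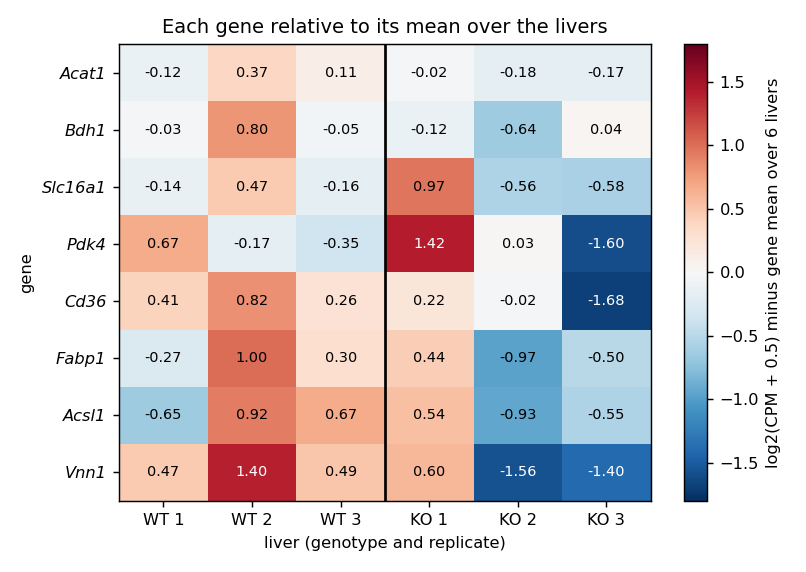
Log2(CPM + 0.5) of each gene (rows) in each liver (columns) minus the mean of that gene over the 6 livers, printed in each cell and coloured from blue (low) to red (high), with a black line between WT and *Sirt7* KO mice. WT mouse 2 and *Sirt7* KO mouse 1 are mostly red and *Sirt7* KO mice 2 and 3 mostly blue.

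The comparison depended on *Sirt7* KO mouse 1. When it was left out, the log2 fold change was below 0 in all 8 genes, with a median of -0.98. In that fit, 5 of the 8 genes (*Acsl1*, *Cd36*, *Fabp1*, *Slc16a1* and *Vnn1*) had an unadjusted p-value under 0.05, compared with 17.1% of all tested genes. The remaining livers of WT and *Sirt7* KO mice had no overlap in 5 of the 8 genes (*Acat1*, *Slc16a1*, *Cd36*, *Fabp1* and *Vnn1*), compared with 36.8% of all tested genes. The log2 fold change without it was -1.15 in *Fabp1*, -1.19 in *Acsl1*, -1.15 in *Cd36* and -0.81 in *Pdk4*. WT mouse 2 moved the values the other way, and without it the median was -0.22, with -0.26 in *Fabp1*, -0.33 in *Acsl1*, -0.12 in *Acat1* and -0.91 in *Vnn1*. Without WT mouse 1, 3 of the 8 genes (*Acsl1*, *Fabp1* and *Vnn1*) had p-values under 0.05 before adjustment, compared with 9.2% of all tested genes. Nothing in the labels sets *Sirt7* KO mouse 1 or WT mouse 2 apart from the other mice, and neither had the lowest or highest number of reads.

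**Figure D5:**
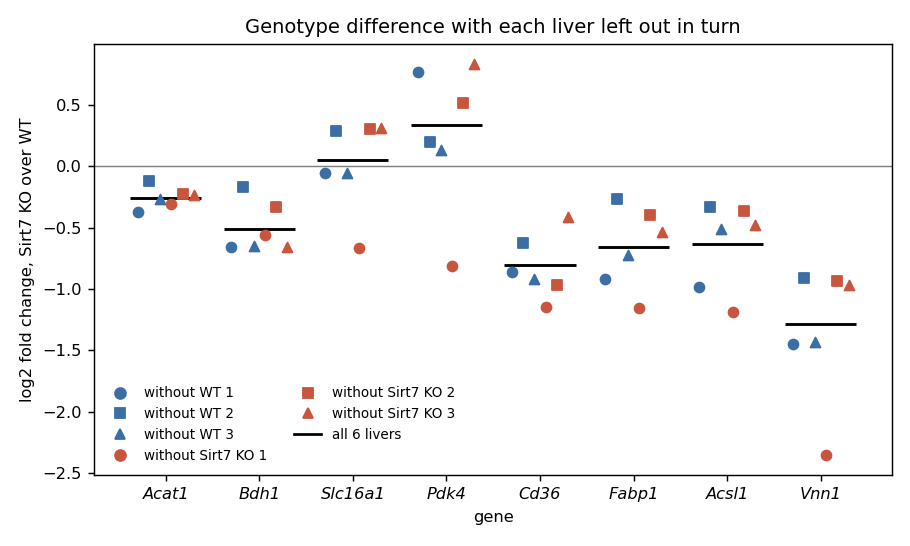
Log2 fold change of *Sirt7* KO over WT from edgeR for each of the 8 genes with all 6 livers (black line) and with 1 WT (blue) or 1 *Sirt7* KO (red) liver left out in turn. The red circles, without *Sirt7* KO mouse 1, are below 0 in all 8 genes and reach -2.35 in *Vnn1*.

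Other ways to process the same reads moved the calls but not the direction of the 6 genes below 0. Without the filter on low counts, edgeR called *Cd36* (adjusted p = 0.0023) and *Vnn1* (adjusted p = 8.2e-09), where 2.27% of 27881 genes were called. In that fit 5 of the 8 genes (*Bdh1*, *Cd36*, *Fabp1*, *Acsl1* and *Vnn1*) were at an unadjusted p-value under 0.05, compared with 8.47% of all genes, and the SE of *Vnn1* was 0.19 in place of 0.55. In every gene of the 8 but *Pdk4* the SE was then 0.19 to 0.22, where it had been 0.17 to 0.55. These p-values therefore do not measure the spread between mice gene by gene, and the calls are not read as a result. DESeq2 called 0 of the 8 genes, both in its default form and with transcript length offsets. Of the genes given an adjusted p-value, 1.77% of 14504 were called in the default form and 1.87% of 12963 with the offsets. Before adjustment 1 of the 8 genes passed 0.05 in each of these fits, *Bdh1* in the default form and *Cd36* with the offsets. The shares of all genes that passed were 5.16% and 5.37%. They were taken over 27862 genes, which include genes with few reads that the edgeR filter left out. Over the 12524 genes tested in edgeR 11.3% passed this threshold. With total-count scaling 3 of the 8 genes (*Acat1*, *Bdh1* and *Vnn1*) passed that threshold in edgeR, compared with 12.1% of all genes.

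The genes most like the mean profile of the 8 genes over the 6 livers, among 6673 other genes with a mean of at least 10 CPM, were *Eif1*, *Epb41l4b*, *Gm15441*, *Gpd1* and *Rtf2*, with a Pearson r of 0.99 each. With only 6 livers, 145 of these genes had an r over 0.9. *Gpd1*, the cytosolic glycerol-3-phosphate dehydrogenase, was at 326, 556 and 371 CPM in WT livers and at 432, 244 and 259.5 CPM in *Sirt7* KO livers. *Gm15441*, a noncoding RNA transcribed across *Txnip* on the opposite strand, had the widest range, with 9.91, 159.7 and 24.3 CPM in WT livers and 30.8, 0.318 and 0.0963 CPM in *Sirt7* KO livers. These genes were chosen for this likeness, so their order over the livers is a description only.

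Compared per length, as TPM summed over the transcripts of a gene, the levels of the 8 genes spanned from 11796 TPM for *Fabp1* to 1.70 TPM for *Pdk4* (means of the 6 livers). *Acat1* (258 TPM) and *Acsl1* (244 TPM) came next and could not be ordered, since *Acat1* was the higher of the pair in 3 of 6 livers. *Bdh1* (69.3 TPM) was above *Vnn1* (40.7 TPM) in all 6 livers, although their ranges overlapped. *Vnn1* was above *Cd36* (17.9 TPM), and *Cd36* above *Slc16a1* (8.70 TPM), in 5 of 6 livers each. On the TPM scale 2 of the 8 genes, *Cd36* and *Acat1*, had no overlap between genotypes, compared with 15.9% of all tested genes. *Acat1* was at 279, 320.3 and 255 TPM in WT livers and at 227, 234 and 234 TPM in *Sirt7* KO livers. Between 45.7% and 54.5% of the *Acat1* TPM in each liver came from a noncoding transcript of 500 bases, so its TPM is less certain than its read count. The same holds for *Pdk4*, where a transcript of 412 bases made up 41.1% of the TPM in WT mouse 1 and 74.2% in *Sirt7* KO mouse 2. It had 2.45 and 4.36 reads in these livers. For *Cd36*, transcripts from the most downstream of 3 start regions were assigned 548, 368 and 201 reads in WT livers and 0, 144 and 0 reads in *Sirt7* KO livers. The most upstream region was assigned 105, 342 and 431 reads and 310.1, 206 and 103 reads, and the middle one 87.5, 213 and 133 reads and 289.9, 90.4 and 46.5 reads. Genotypes overlapped in the share of reads of the most downstream region (26.2% to 74.0% in WT mice and 0% to 32.7% in *Sirt7* KO mice). As for *Acsl1*, the split among transcripts of the same gene is an estimate of Salmon. Little sequence of these genes was shared with other genes. *Bdh1* shared 12.1% of its words of 31 bases with the overlapping antisense gene *Gm15743*, and *Acsl1* shared 9.46% with *Gm45244*, which had 19 and 27 reads over all 6 livers.

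The other genes of these pathways were examined in 10 lists, which together held 104 tested genes besides the 8. In edgeR the adjusted p-value was under 0.05 in 0 of these genes. At an unadjusted p-value under 0.05, 26 were lower in *Sirt7* KO mice, where 4.78% of all tested genes were lower, and 11 were higher, where 6.54% of all tested genes were higher. DESeq2 with length offsets gave 36 such genes in both directions. The lists were chosen with earlier results of these data known, so these counts beside the shares of all genes are a description only. Of the 5 other genes of ketone body synthesis and use, 2 were lower at this threshold and 0 higher. In the same list *Bdh2* had the smallest p-value among the genes with a positive log2 fold change, which was 0.49 (SE 0.23, adjusted p = 0.46 from edgeR).

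Among 5 tested genes of monocarboxylate transport, 1 was lower at an unadjusted p-value under 0.05. This was *Slc16a7*, which encodes MCT2, a carrier of the same family as MCT1. It was at 73.6, 75.3 and 78.9 CPM in WT livers and at 34.2, 39.7 and 40.0 CPM in *Sirt7* KO livers. Unlike *Slc16a1*, it showed close values within each genotype and a wide gap between them, and its log2 fold change was -1.001 (SE 0.14, adjusted p = 0.055 from edgeR). Among 11 genes of the pyruvate dehydrogenase switch, 1 was lower, *Mpc2*, a subunit of the mitochondrial pyruvate carrier. It was at 397, 359 and 344 CPM in WT livers and at 306, 196 and 212 CPM in *Sirt7* KO livers (log2 fold change -0.62, SE 0.19, adjusted p = 0.26 from edgeR). *Pdk2*, another pyruvate dehydrogenase kinase, had a log2 fold change of 0.49 (adjusted p = 0.45 from edgeR), with 87.0, 93.6 and 112.6 CPM in WT livers and 94.0, 159 and 158 CPM in *Sirt7* KO livers.

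Genes of fatty acid activation and uptake had differences in both directions. Among 10 other genes of activation, 3 were higher (*Acsl4*, *Acsl5* and *Acsm1*) and 1 was lower at an unadjusted p-value under 0.05. *Acsm1*, a medium-chain acyl-CoA synthetase, was at 203, 246 and 242 CPM in WT livers and at 276, 465 and 471 CPM in *Sirt7* KO livers (log2 fold change 0.81, adjusted p = 0.21 from edgeR). *Slc27a1*, a fatty acid transport protein, was at 30.1, 34.6 and 36.9 CPM and at 21.0, 9.32 and 8.48 CPM (log2 fold change -1.39, adjusted p = 0.17 from edgeR). Among 8 other genes of uptake and binding, 2 were higher (*Fabp5* and *Cav1*) and 0 lower. The level of *Cav1* was low, with 1.35, 1.09 and 2.59 CPM in WT livers and 7.14, 2.86 and 3.18 CPM in *Sirt7* KO livers. *Fabp5*, a fatty acid-binding protein that is scarce in normal liver, was at 2.29, 1.09 and 2.81 CPM in WT livers and at 17.4, 12.9 and 9.15 CPM in *Sirt7* KO livers. Its log2 fold change was 2.65 (SE 0.38, adjusted p = 0.055 from edgeR), a sign opposite to that of *Fabp1*. *Fabp2* had a log2 fold change of -0.91 (adjusted p = 0.50 from edgeR) and overlapped between genotypes. Among 10 other genes of coenzyme A synthesis and breakdown, 1 was higher and 1 lower. *Nudt7*, which hydrolyses coenzyme A in peroxisomes, was at 87.4, 184 and 167 CPM and at 251, 374 and 423 CPM (log2 fold change 1.26, adjusted p = 0.17 from edgeR). *Vnn3*, a paralog of *Vnn1*, had a log2 fold change of -0.62 (adjusted p = 0.30 from edgeR) without overlap between genotypes.

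Many of the lower genes belonged to fatty acid oxidation or were known PPAR-alpha targets. Of 17 genes of the carnitine shuttle and mitochondrial beta-oxidation, 7 were lower and 0 higher at an unadjusted p-value under 0.05, with a median log2 fold change of -0.39. *Acadm*, the medium-chain acyl-CoA dehydrogenase, was at 456, 655 and 512 CPM in WT livers and at 407, 321 and 334 CPM in *Sirt7* KO livers (log2 fold change -0.61, adjusted p = 0.25 from edgeR), and *Echs1* had a log2 fold change of 0.26 (adjusted p = 0.64 from edgeR). Of 15 other PPAR-alpha targets, 8 were lower and 0 higher, with a median log2 fold change of -0.99. They included *Ehhadh* and *Acaa1b* of peroxisomal beta-oxidation, with log2 fold changes of -1.57 and -0.93 (adjusted p = 0.34 and 0.39 from edgeR). Both overlapped between genotypes, and WT mouse 2 was the highest liver in both. *Cyp4a14*, a fatty acid omega-hydroxylase, was at 2751, 3182 and 2049 CPM in WT livers and at 884, 268 and 82.8 CPM in *Sirt7* KO livers (log2 fold change -2.69, adjusted p = 0.20 from edgeR). Relative to their means over the 6 livers, these 15 targets were at 0.23, 1.22 and 0.62 in WT livers and at 0.47, -1.17 and -1.37 in *Sirt7* KO livers on the log2 scale. The order of the livers resembled that of the 8 genes, with WT mouse 2 highest and *Sirt7* KO mice 2 and 3 lowest.

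Among 13 regulators of the fasting switch, 4 were lower (*Ppara*, *Rxra*, *Foxo1* and *Ncor1*) and 0 higher at an unadjusted p-value under 0.05. *Ppara*, the receptor itself, had a log2 fold change of -0.57 (SE 0.23, adjusted p = 0.38 from edgeR) and overlapped between genotypes. *Rxra*, the partner receptor of PPAR-alpha, was at 129, 129 and 127 CPM in WT livers and at 100.2, 93.5 and 99.3 CPM in *Sirt7* KO livers (log2 fold change -0.40, adjusted p = 0.28 from edgeR), and *Insr* had a log2 fold change of 0.06 (adjusted p = 0.93 from edgeR). Among 10 lipogenic genes of the fed state, 5 were higher (*Srebf1*, *Acly*, *Fasn*, *Elovl6* and *Thrsp*) and 1 was lower, with a median log2 fold change of 0.65. *Fasn*, the fatty acid synthase, was at 39.6, 44.6 and 56.7 CPM in WT livers and at 67.8, 220.9 and 124 CPM in *Sirt7* KO livers (log2 fold change 1.55, adjusted p = 0.17 from edgeR), and *Me1* had a log2 fold change of -0.55 (adjusted p = 0.35 from edgeR). The list means of the lipogenic genes were -0.52, -0.38 and -0.15 in WT livers and -0.33, 0.84 and 0.54 in *Sirt7* KO livers. *Sirt7* KO mouse 1 thus lay within the WT range here as well.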

How the data were processed

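RNA from the livers of 3 male WT mice and 3 male *Sirt7* KO mice was sequenced from a single end after SMART-seq HT and Nextera XT library preparation, and groups were taken from the sample labels. The authors trimmed the reads (Trim Galore 0.6.5), mapped them to the GRCm38 transcriptome and quantified them with Salmon 1.2.1. They deposited estimated counts per transcript, which are not normalized, and TPM, which the authors' Salmon run scaled to effective length. The annotation release is not given in the sources used here.

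The estimated counts of the transcripts of a gene (GENCODE M21) were added and rounded. Of 140992 transcripts, 1201 could not be assigned to a gene and were dropped, with 0.303% to 0.492% of the reads of a mouse. Genotypes were compared with edgeR 4.0.16 (R 4.3.3), by the quasi-likelihood test with TMM factors, filterByExpr (minimum count 10) and Benjamini-Hochberg adjustment, without covariates. Standard errors were derived from the F statistic. DESeq2 1.42.0 was an alternative, also with average transcript length offsets, which is the tool the paper's methods name. Both were tested on simulated counts. The libraries are not known to keep the strand, so overlapping antisense reads were not separated. The mice are separate animals, and no livers agreed within sampling noise (chi-square per gene at least 16.9).

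The 8 genes and the 10 lists were chosen with earlier results of these data known. Besides them the text names, per list, the gene with the smallest p-value in each direction and the 5 genes most like the mean profile. Some genes that this rule selects are not reported here. *Adipoq*, *Lep*, *Plin4*, *Txnip*, the antisense genes and, in the lists, *Acsl4*, *Acsl5*, *Cav1*, *Ehhadh*, *Acaa1b*, *Ppara*, *Foxo1*, *Ncor1*, *Srebf1*, *Acly*, *Elovl6* and *Thrsp* were named after their values were seen. Promoter windows are from RefSeq.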

Additional observations from a re-analysis of the deposited data

How the results depend on the processing

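Limits lie in the 3 mice per genotype and, for *Pdk4*, in 9 to 115 reads per mouse. The median log2 fold change of the 8 genes stayed below 0 under every alternative run, at -0.98 to -0.22 with each liver left out in turn and at -0.65 to -0.48 otherwise. Total-count scaling moved the median of all tested genes to -0.11. The number of genes called over all genes was 1, and it was 2 with total counts, 633 without a filter on low counts, 256 with DESeq2, 242 with DESeq2 and length offsets, 2 with edgeR and length offsets, 925 when the p-value was not adjusted, and 0 to 252 with each liver left out, the highest without *Sirt7* KO mouse 1. The number of the 8 genes with an unadjusted p-value under 0.05 was 1, and it was 3 with total counts, 5 without a filter, 0 with a mean of at least 50 counts, 0 with edgeR and length offsets, and 0 to 5 with each liver left out (5 without *Sirt7* KO mouse 1 and 3 without WT mouse 1). Without a filter edgeR called *Vnn1* (adjusted p = 8.2e-09) and *Cd36* (adjusted p = 0.0023), at nearly the same log2 fold changes as with it. The SE was then nearly alike in every gene of the 8 but *Pdk4*, so these p-values do not measure the spread of each gene between mice. Neither DESeq2 fit called any of the 8 genes. Genes whose genotypes did not overlap numbered 1 of 8 in CPM, 2 in TPM and 1 to 5 with each liver left out (5 without *Sirt7* KO mouse 1, 3 without WT mouse 1 and 2 without *Sirt7* KO mouse 3). *Slc16a1* turned to -0.032 with total counts and lay between -0.67 and 0.31 with each liver left out, and *Pdk4* lay between -0.81 and 0.84. The causes of these changes were not tested.

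Mice with the same replicate number are different animals, and their deviations from the genotype means correlated at 0.07, 0.08 and -0.04, so the numbers were not taken as pairs, and WT mouse 3 correlated best with another number. With the replicate number as a block, 41 genes (0.327%) were called, *Cd36* and *Vnn1* (2 of the 8 genes) were under 0.05 before adjustment as did 11.4% of all genes, and the log2 fold change was -0.12 in *Slc16a1* and -0.061 in *Pdk4*.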
